A study of Homo sapiens with 6 samples.

Results

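The SNF2-family chromatin ATPases considered here are 30 genes of 56832 symbols in the count table, found by exact match of the symbol, and 30 of 30 were present and passed the filter on low counts. HLTF, the targeted gene, and its close paralog SHPRH belong to the same family and were left out of the 30. RNA selected by its poly(A) tail was sequenced from cells of HEK293T, a human embryonic kidney line that carries the SV40 large T antigen, in 3 wild-type libraries and in 3 libraries of the same line labelled as a knockout of SMARCA3, the protein that HLTF encodes. Both groups were grown in the same medium with no further agent. The labels give neither how the knockout was made nor whether it is 1 clone, and nothing says that replicates came from separate cultures, so the p-values reflect the spread among these 6 libraries alone, and that spread may be technical. In bulk RNA, fewer cells of a kind and less RNA per cell cannot be told apart. The comparison asks which mRNAs of the family differ between knockout and wild-type cells.

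SNF2 proteins share a paired-lobe helicase motor that hydrolyses ATP and pulls along double-stranded DNA without unwinding it. In one set of branches the motor slides, evicts or exchanges nucleosomes, usually inside a large complex, as in BAF (SMARCA2 or SMARCA4), ISWI (SMARCA1 or SMARCA5), NuRD (CHD3, CHD4 or CHD5) and the INO80 and SRCAP complexes. In other branches it strips proteins from DNA, remodels recombination intermediates or reverses stalled replication forks, as in RAD54L, ERCC6, SMARCAL1 and ZRANB3. The branches used below follow the usual sequence classification of the family, namely Snf2-like (15 genes), Swr1-like (4), Rad54-like (4), ERCC6/Mot1-like (4), SMARCAL1-like (2) and Rad5/16-like, the branch of HLTF, with TTF2 as the only member here.

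Total counts ran from 33125811 to 41593655, and all 3 knockout libraries were the shallower ones. The least covered member in any library, CHD5, had 86 counts, so counting error is small for the other members. Levels are counts per 1000000 scaled counts of the tested genes (CPM). Wild-type replicate 1 stood somewhat apart from replicates 2 and 3 (chi-square per degree of freedom over genes 9.78 and 15.2, against 3.54 to 5.62 between knockout libraries), and results that turn on it are given without it. HLTF was present in all 6 libraries, at 215, 191 and 195 CPM in wild-type and 141, 140 and 149 CPM in knockout replicates 1 to 3, and was called lower (log2 fold change -0.48, SE 0.05, edgeR adjusted p = 4.65e-05). The median over its 40 neighbouring genes was -0.50, and with that median removed its value was 0.02. Whether the HLTF reading frame was disrupted cannot be read from these counts. All 6 embryonic kidney markers were above 1 CPM in some library. Of these EYA1 (13.5 to 3.71 CPM, log2 fold change -1.87) and WT1 (-0.96) were called lower and PAX2 (4.52 to 10.8 CPM) and SALL1 (0.24) higher. The summed epithelial markers lay at 41.5 to 46.4 CPM in wild-type and 21.9 to 23.2 CPM in knockout libraries with KRT19 at 0 in all 6. Of 6 blood markers 5, and of 5 endothelial markers 5, stayed under 1 CPM. Mesenchymal markers summed to 325 to 352 and 263 to 270 CPM in the wild-type and knockout groups, with VIM (-0.64) and CDH2 (-0.28) lower and FN1 (0.43) higher, and the part of these marker shifts in the results below was not tested.

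Of the 30 ATPase genes, 10 were called higher in the knockout, 0 lower and 20 not called by edgeR's quasi-likelihood test at an adjusted p under 0.05. The background was wide. Over all 18061 genes tested 31.8% were called, 14.0% higher and 17.7% lower, and among the 11766 genes within the range of mean CPM that the members span 37.2% were called, 16.7% higher and 20.5% lower. In either direction 33.3% of the 30 were called, which lies between 31.8% and 37.2%. Removal of a trend on GC content and length turned the balance of all calls from 2532 higher and 3205 lower to 3213 higher and 2470 lower. The called changes were small, from 1.11-fold for CHD9 to 1.32-fold for SRCAP, and the median log2 fold change of the 30 was 0.08 against 0.00 for all genes tested. In the knockout 22 of the 30 had a positive log2 fold change. The CPM ranges of the groups did not overlap for 15 of the 30 members, 12 of them higher and 3 lower in the knockout. This held for 45.6% of all genes tested, a similar share, so the count does not set the members apart. The 10 called genes were all among these 15. Summed over the 30 genes, the level was 3524, 3427 and 3393 CPM in wild-type and 3657, 3687 and 3632 CPM in knockout replicates 1 to 3.

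**Figure D1:**
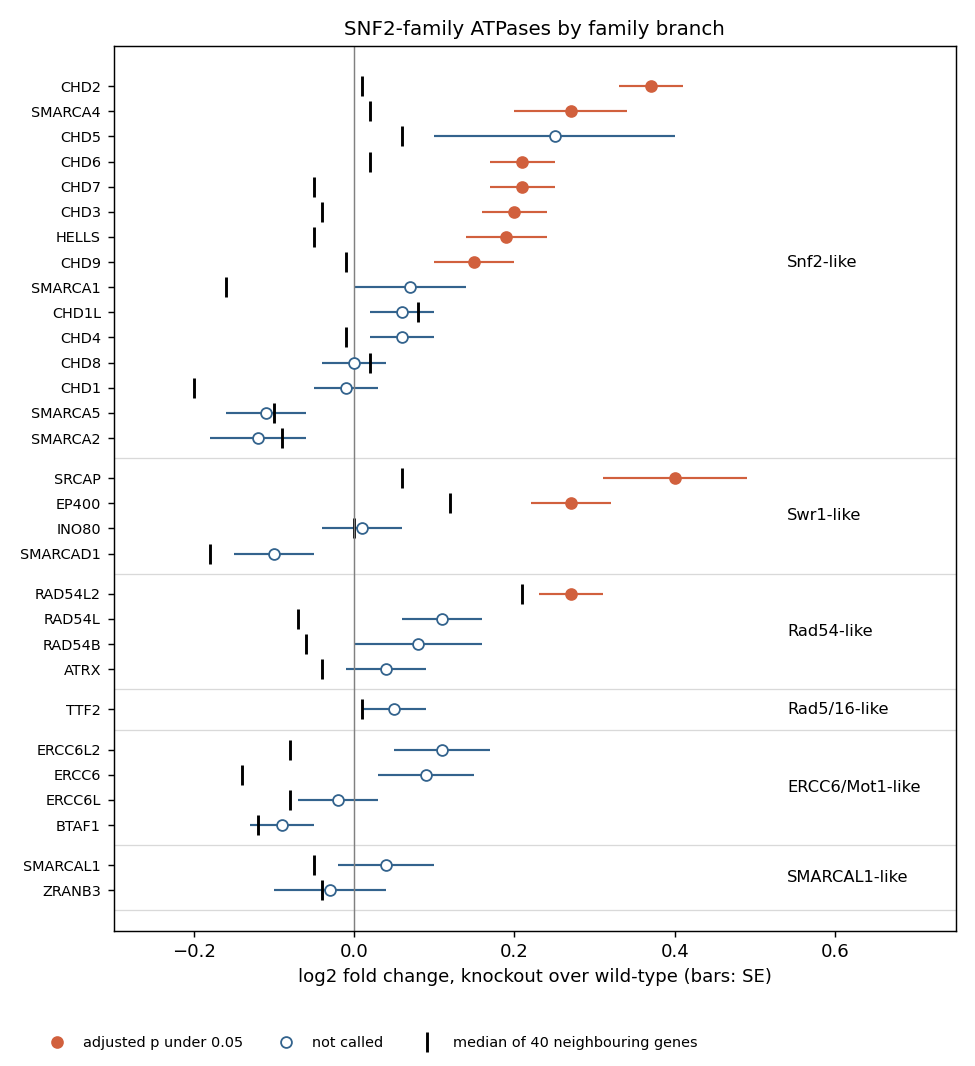
Log2 fold change of knockout over wild-type (x axis, bars are SE of the edgeR fit) for the 30 genes (y axis), grouped by family branch, with the median of 40 neighbouring genes as a black tick. Filled points, at 0.15 to 0.40, are the 10 genes called higher, and 7 of them lie in the Snf2-like branch.

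The chromodomain helicases held 5 of the 10 calls. Of 9 CHD genes, CHD2, CHD3, CHD6, CHD7 and CHD9 rose. CHD2, which works with its sister CHD1 at transcribed genes and carries paired chromodomains, measured 113, 115 and 112 CPM in wild-type and 151, 149 and 142 CPM in knockout replicates. The knockout libraries were all far above the tight wild-type range. The log2 fold change was 0.37 (SE 0.04, adjusted p = 5.38e-05), the smallest adjusted p of the 30 genes, beside a neighbour median of 0.01. CHD1, which binds trimethylated H3K4 and spaces nucleosomes behind RNA polymerase, had 206, 188 and 188 against 191, 191 and 197 CPM, and these ranges overlapped (log2 fold change -0.01, SE 0.04).

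In the CHD7 subfamily, which is marked by BRK domains and includes the gene of CHARGE syndrome, 3 of 4 genes rose. CHD7 itself had 145 CPM in each of the 3 wild-type libraries and 166, 171 and 167 CPM in the knockout. The log2 fold change was 0.21 (SE 0.04, adjusted p = 0.00131), and its neighbours had a median of -0.05. CHD6 had 85.5, 83.1 and 85.4 CPM in wild-type and 97.6, 101 and 96.0 CPM in knockout libraries (log2 fold change 0.21, adjusted p = 0.00302). CHD9 rose least, from 75.2, 70.8 and 67.5 to 77.4, 78.5 and 80.3 CPM (log2 fold change 0.15, SE 0.05, adjusted p = 0.0478). Its highest wild-type and lowest knockout libraries nearly touched, and the call was lost in 9 of 17 alternatives, among them the removal of any library but wild-type replicate 1 (adjusted p up to 0.155). CHD8, a repressor of beta-catenin targets and the most abundant of these 4 per length, stayed level at 213, 209 and 207 against 208, 214 and 205 CPM (log2 fold change 0.00, SE 0.04).

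Among the Mi-2 ATPases of the NuRD deacetylase complex, CHD3 rose and the dominant CHD4 was not called. CHD3 had 128 CPM in each wild-type library and 144, 147 and 148 CPM in the knockout (log2 fold change 0.20, SE 0.04, adjusted p = 0.00228). CHD4 had 424, 428 and 425 against 439, 458 and 433 CPM, ranges that did not overlap but differed little (log2 fold change 0.06, SE 0.04, adjusted p = 0.255). CHD5, the neural member, was near the bottom of the measured range at 2.19, 2.31 and 2.94 against 3.38, 2.85 and 2.61 CPM, and its log2 fold change of 0.25 had an SE of 0.15.

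SMARCA4 (BRG1), the main BAF motor in these cells, rose from 220, 253 and 270 CPM to 323, 285 and 288 CPM. All knockout libraries were above all wild-type libraries, but both groups were spread widely. The log2 fold change was 0.27 (SE 0.07, adjusted p = 0.0159). SMARCA4 transcripts are GC-rich (59.2%), and with the trend of fold change on GC content and length removed (a setting added once the data had been seen) the value was 0.11 (adjusted p = 0.298). SMARCA2 (BRM), its alternative in the same complex, had 44.3, 40.2 and 39.1 CPM in wild-type and 37.6, 37.7 and 38.9 CPM in knockout libraries (log2 fold change -0.12, SE 0.06, adjusted p = 0.169). The ranges just missed each other, and SMARCA2 had the lowest log2 fold change of the 30 genes. Without wild-type replicate 1 it was -0.05 (adjusted p = 0.508).

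The ISWI motors, which space nucleosomes into regular arrays, were not called. SMARCA5 (SNF2H) had 340, 299 and 302 against 285, 293 and 293 CPM, with a high wild-type replicate 1 (log2 fold change -0.11, SE 0.05), and SMARCA1 (SNF2L) had 84.3, 74.5 and 69.5 against 75.8, 81.5 and 83.1 CPM (log2 fold change 0.07, SE 0.07). Without wild-type replicate 1, SMARCA5 was at -0.04 (adjusted p = 0.470) and SMARCA1 was called higher (0.17, adjusted p = 0.0227). HELLS (LSH), which opens chromatin for DNA methylation and for ATM-dependent repair, rose from 143, 133 and 127 to 154, 156 and 150 CPM (log2 fold change 0.19, SE 0.05, adjusted p = 0.0128). The 3 knockout libraries lay close together above a spread wild-type group, and without knockout replicate 2 the adjusted p was 0.0561. CHD1L (ALC1), which is switched on by poly(ADP-ribose), had overlapping ranges of 148, 146 and 136 against 148, 149 and 151 CPM.

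**Figure D2:**
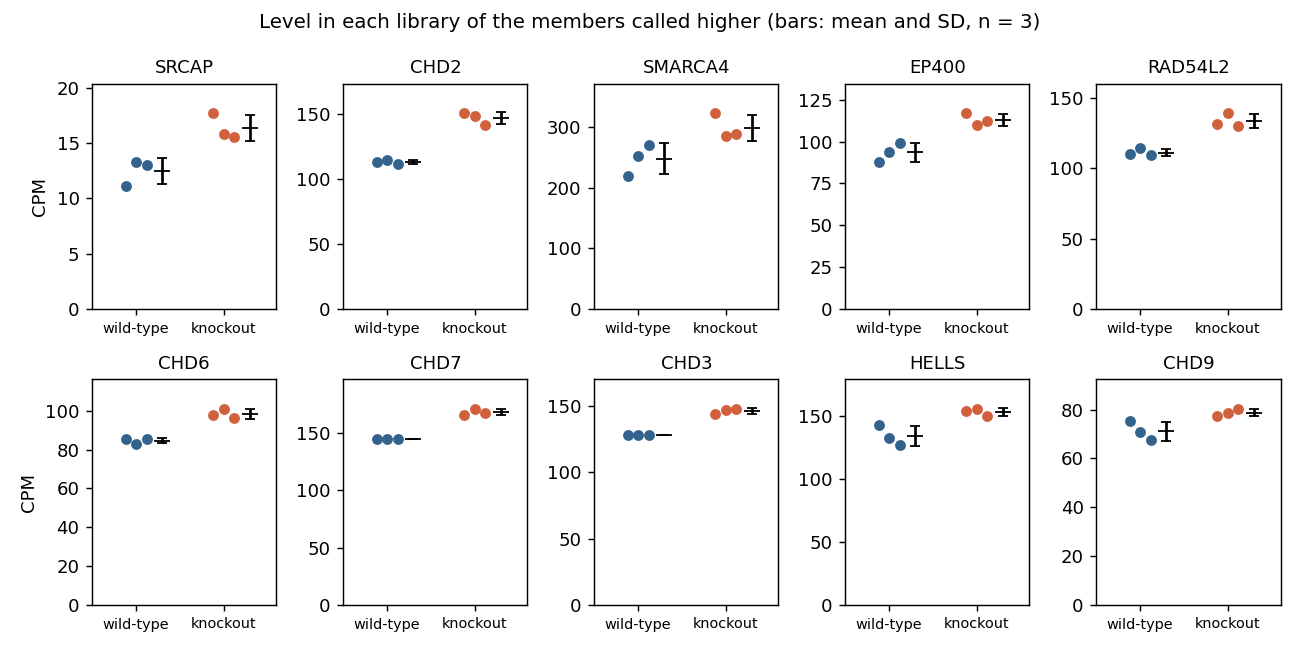
CPM (y axis, from 0) in each of the 3 wild-type and 3 knockout libraries for the 10 genes called higher, ordered by log2 fold change, with mean and SD beside the points. In every panel the lowest knockout library lies above the highest wild-type library, as for CHD9 (77.4 against 75.2 CPM).

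Of the 4 Swr1-like motors, SRCAP and EP400 rose. SRCAP, which deposits H2A.Z, went from 11.1, 13.3 and 13.0 to 17.7, 15.8 and 15.5 CPM, and the groups were separate. The log2 fold change of 0.40 (SE 0.09, adjusted p = 0.00597) was the highest of the 30. In GENCODE 29, 10504 of its 13674 exon bases overlap other genes of the same strand, and whether reads there were counted for SRCAP was not stated, so its level may not be comparable with the others. EP400, the motor beside the TIP60 acetyltransferase, went from 87.9, 93.8 and 99.3 to 117, 110 and 112 CPM (log2 fold change 0.27, SE 0.05, adjusted p = 0.00265). Its paralogous copy EP400NL, with which reads may be confused, averaged 33.2 CPM in wild-type and 33.5 CPM in knockout libraries. The neighbours of EP400 on chromosome 12 had a median of 0.12 with 12 of 40 called higher, and with that median removed its adjusted p was 0.0566. INO80, the motor of the complex of the same name, had 59.3, 56.4 and 53.4 against 55.8, 58.8 and 55.9 CPM (log2 fold change 0.01, SE 0.05). SMARCAD1, which helps to keep silenced chromatin through replication, had 122, 112 and 111 against 107, 107 and 108 CPM (log2 fold change -0.10, SE 0.05, adjusted p = 0.140). Its ranges did not overlap, and its neighbours had a median of -0.18 with 18 of 40 called lower and 0 higher.

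In the Rad54-like branch RAD54L2 (ARIP4), a cofactor of nuclear receptors, rose from 110, 114 and 109 to 131, 139 and 130 CPM (log2 fold change 0.27, SE 0.04, adjusted p = 8.85e-04). It lies on chromosome 3 between 51541144 and 51668667 (hg38), among genes that moved with it. The median of its 40 neighbours was 0.21, 13 were called higher and 2 lower, and with that median removed the log2 fold change was 0.06 (adjusted p = 0.366). The strand-exchange motor RAD54L had 44.5, 45.6 and 43.6 against 45.9, 48.8 and 49.3 CPM, just separate but not called (log2 fold change 0.11, SE 0.05, adjusted p = 0.142). Its homologue RAD54B, at 8.65, 7.67 and 8.60 against 8.88, 9.04 and 8.48 CPM, overlapped between groups (log2 fold change 0.08, SE 0.08). ATRX, which places H3.3 at heterochromatin with DAXX, had 163, 145 and 148 against 155, 159 and 155 CPM (log2 fold change 0.04, SE 0.05).

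No gene of the remaining branches was called. TTF2, which releases RNA polymerase II from DNA at mitosis, is the only member in the branch of HLTF and had 156, 153 and 145 against 158, 157 and 154 CPM (log2 fold change 0.05, SE 0.04). BTAF1, which removes TBP from DNA, had 185, 179 and 167 against 166, 168 and 163 CPM (log2 fold change -0.09, SE 0.04), with overlapping ranges. Among the ERCC6 genes, ERCC6 (CSB), the sensor of RNA polymerase stalled at DNA damage, and ERCC6L2 had log2 fold changes of 0.09 and 0.11 (SE 0.06 each), and ERCC6L (PICH), which binds ultrafine bridges in anaphase, had -0.02 (SE 0.05). Without wild-type replicate 1 ERCC6L2 was called higher (adjusted p = 0.0303). The fork-reversal motors SMARCAL1 and ZRANB3 had 0.04 (SE 0.06) and -0.03 (SE 0.07). A p that misses the threshold does not show that these levels were equal. With all libraries kept, ERCC6L2 was not called at 1.08-fold (edgeR adjusted p = 0.144). The smallest called change of any member was 1.11-fold, for CHD9 (SE 0.05). With SEs of the size seen in these branches, shifts of about that size may also have been missed.

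By branch, 7 of 15 Snf2-like, 2 of 4 Swr1-like, 1 of 4 Rad54-like and 0 of 7 genes in the other branches were called higher, with median log2 fold changes of 0.15, 0.14 and 0.10 for the first 3 branches and of 0.05, 0.03 and 0.01 for the Rad5/16-like, ERCC6/Mot1-like and SMARCAL1-like genes. The difference between branches was not tested, as they hold few genes. The counts moved with the processing. With neighbour medians removed, 1 Swr1-like and 2 ERCC6/Mot1-like genes were called higher, and with the GC and length trend removed 2 Rad54-like and 1 ERCC6/Mot1-like gene. Without replicate 1 of both groups, a setting also added later, 14 members were called higher, the 10 and SMARCA1, RAD54L, ATRX and ERCC6L2, which made 3 of 4 Rad54-like genes, while 2923 of 18244 genes tested were then higher. CHD2, CHD3, CHD6, CHD7 and SRCAP were called in all 17 alternatives.

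Some properties that played no part in the choice of the genes moved with the fold change across the 30. Position was one, with r = 0.61 (Spearman 0.59, n = 30 genes) between a member's log2 fold change and the median of its neighbours, against r = 0.32 (Spearman 0.41) over 11793 genes with at least 2 CPM. GC content of the transcripts was another, with r = 0.56 (Spearman 0.53) across the 30 and 0.13 (Spearman 0.21) over the 11793. The log2 wild-type CPM per kb of merged exons went the other way, with r = -0.37 (Spearman -0.39) across the 30. It was not computed over all genes, and it shares the wild-type counts with the fold change. The 30 points share the same 6 libraries, so these are descriptions. Among called genes GC content ran from 37.6% for HELLS to 59.2% for SMARCA4. Members called higher numbered 13 with neighbour medians removed and 12 with the GC and length trend removed. The median log2 fold change of the 30 was then 0.14 and 0.13, against 0.08 before. That of all genes tested was 0.01 and 0.04, against 0.00 before. Over all genes 12.1% and 17.8% were called higher, against 14.0% before. Gained were SMARCA1, CHD1, RAD54L, ERCC6 and ERCC6L2 in the first setting and CHD1L, RAD54L and ERCC6L2 in the second. With neighbour medians removed 8 of the 10 were called, namely CHD2 at 0.37, CHD3 at 0.24, CHD6 at 0.20, CHD7 at 0.26, CHD9 at 0.15, HELLS at 0.24, SMARCA4 at 0.25 and SRCAP at 0.34, and EP400 and RAD54L2 were not. With the GC and length trend removed 9 of the 10 were called, and SMARCA4 was not. Among the 9 were CHD3 at 0.13, EP400 at 0.16, SRCAP at 0.28, CHD9 at 0.23 and HELLS at 0.31.

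Some of these motors have a paralog with which they share a complex or a role. The log2 ratio of 2 paralogs was taken within each library, which removes the library scaling, for 8 pairs. SMARCA2 over SMARCA4 lay outside the wild-type range in the knockout, with log2 ratios of -2.31, -2.65 and -2.79 in wild-type and -3.10, -2.92 and -2.89 in knockout replicates, a difference of -0.38 (SE 0.16). Without wild-type replicate 1 it was -0.25. CHD1 over CHD2 went from 0.86, 0.71 and 0.75 to 0.34, 0.36 and 0.47 (difference -0.38, SE 0.06). These ratios keep any trend on position or GC content. The neighbour medians of CHD1 and CHD2 were -0.20 and 0.01, and with these removed their log2 fold changes were 0.19 and 0.37. SMARCA4 was at 0.11 with the GC and length trend removed. CHD7 over CHD8 was the most even within groups, at -0.55, -0.53 and -0.52 against -0.33, -0.32 and -0.30 (difference 0.21, SE 0.01). SMARCA1 over SMARCA5 and CHD3 over CHD4 were higher by 0.19 (SE 0.05) and 0.14 (SE 0.03), again with separate ranges. In these 5 pairs the exact two-sided permutation test over libraries gave p = 0.1, the smallest that 3 against 3 allow, and 0.16 after adjustment over the 8 pairs, so none could pass 0.05. RAD54L over RAD54B (difference 0.02, SE 0.09), SMARCAL1 over ZRANB3 (0.07, SE 0.07) and SRCAP over EP400 (0.13, SE 0.06) had overlapping ranges, with exact permutation p of 0.8, 0.3 and 0.2.

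**Figure D3:**
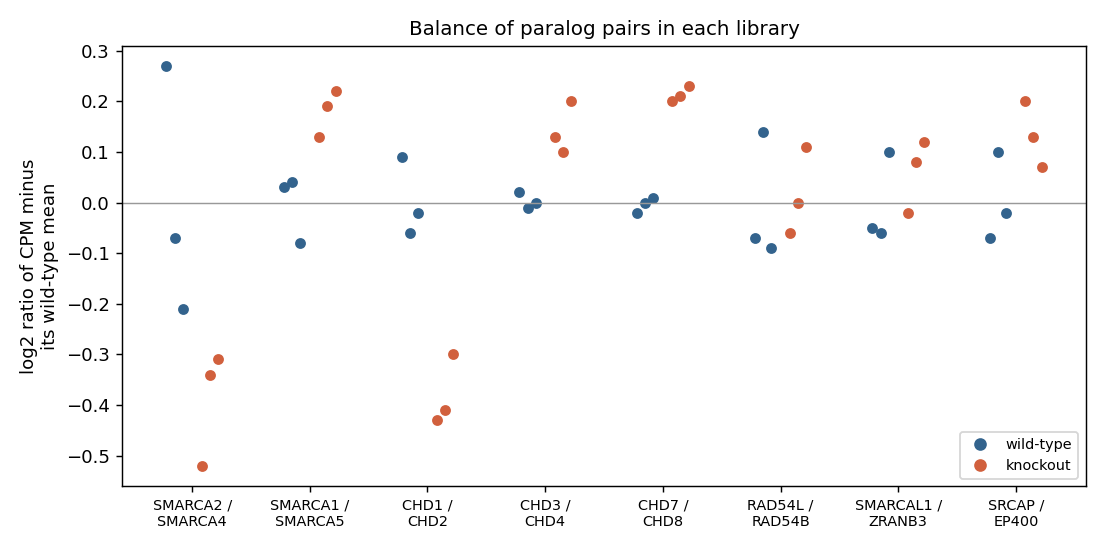
Log2 ratio of the CPM of 2 paralogs in each library, minus the mean of the 3 wild-type libraries (y axis), for 8 pairs (x axis). The groups are separate in 5 pairs, with mean shifts of -0.38 for SMARCA2 over SMARCA4 and for CHD1 over CHD2, and they overlap in the last 3.

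Levels between genes were compared as CPM per kb of merged exons, a scale that understates genes with long rarely used exons. In wild-type cells CHD1L (42.5 ± 1.94, SD, n = 3), SMARCA5 (37.4 ± 2.71) and CHD4 (33.5 ± 0.177) led, followed by BTAF1 (23.3 ± 1.24). A middle group from CHD1 (18.6 ± 0.987) through SMARCAD1 (18.2 ± 1.00), SMARCA1 (17.4 ± 1.72), ERCC6L (16.3 ± 0.820) and SMARCA4 (15.7 ± 1.62) to TTF2 (14.9 ± 0.590) held neighbours that differed by less than the larger of their 2 SDs. Per length, SMARCA2 stood at 0.141 of SMARCA4 in wild-type and 0.108 in the knockout, SMARCA1 at 0.466 and 0.53 of SMARCA5, CHD3 at 0.391 and 0.43 of CHD4, and RAD54L at 8.88 and 9.02 times RAD54B. The lowest levels were those of ERCC6 and RAD54B (1.56 each), SRCAP (0.909 ± 0.0873) and CHD5 (0.251 ± 0.0405). As for SRCAP, many exon bases overlap other genes of the same strand in RAD54B (3139 of 5313) and CHD4 (5964 of 12713). Whether reads there were counted for these genes was not stated. Their levels, and the ratios to RAD54B and CHD4, may therefore not be comparable with the others.

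**Figure D4:**
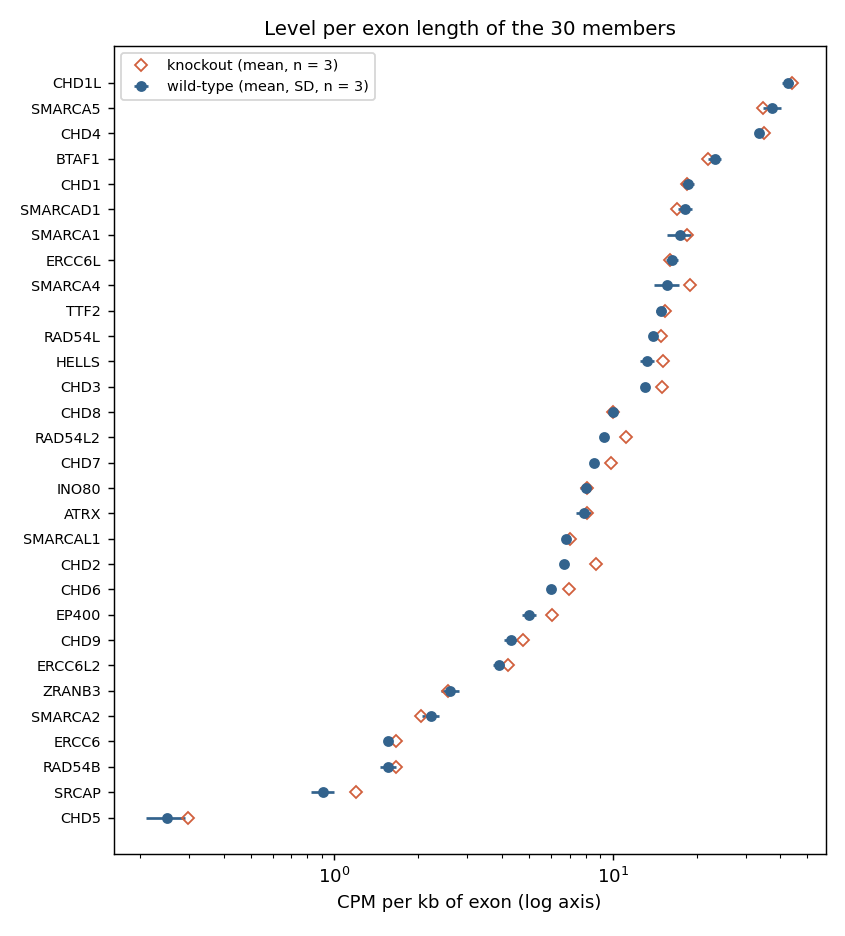
CPM per kb of exon (log x axis) for the 30 genes (y axis), as wild-type mean with SD and as knockout mean. Levels run from 0.251 for CHD5 to 42.5 for CHD1L, and the shifts between groups are small beside this range.

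Start regions were matched in RefSeq (GRCh38.p14) for 25 of the 30 genes, 8 of them called higher. The 250 bases before each start were searched for 15 motifs on both strands. These 25 genes had 42 start regions, and a gene was counted when any of its own held the motif. Shares of all are per single start region, so the gene counts and these shares are not like for like. GGGCGG, the core of the GC box that SP1 binds, was found for 20 of the 25 genes and for 5 of the 8 called, while 42.6% of 35116 start regions of all kinds hold it. CCAAT was found for 11 of the 25 and 2 of the 8 (32.0% of all). For the cell-cycle motifs, TTTCCCGC and TTTGGCGC, forms of the E2F site, were found for HELLS alone (1.39% and 0.550% of all), their shorter forms TTCCCGC and TTTGGCG for 4 and 3 genes (5.52% and 1.59%), and TTTGAA for 4 (13.3%). CCGGAAGT (3.42% of all) and CACGTG (6.34%) were found for 2 genes each and TATAAA (10.7%) for 1. The other 5, TGACGTCA (1.65% of all), ATGGCGGC, the core of the YY1 site (1.30%), its longer form (0.248%), the palindrome of NRF1 (1.03%) and the core of the ZNF143 site (0.219%), were found for none of the 25. Some motifs contain others, as TTTCCCGC contains TTCCCGC. A match describes letters and is neither a site in use nor a cause, and with 15 motifs over 25 genes single matches of rare motifs carry little weight.

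A pair of start regions is shown 5′ to 3′ on the plus strand. That of CHD2, the gene with the smallest adjusted p, lies at chr15:92900074-92900323 and held 0 of the 15 motifs. That of HELLS, at chr10:94545538-94545787, was chosen after the matches were seen, because it held 6 of the 15. Its capitals mark TTTGGCGC in reverse complement from position -76 and TTTCCCGC from position -8, neither overlapping GGGCGG.
CHD2: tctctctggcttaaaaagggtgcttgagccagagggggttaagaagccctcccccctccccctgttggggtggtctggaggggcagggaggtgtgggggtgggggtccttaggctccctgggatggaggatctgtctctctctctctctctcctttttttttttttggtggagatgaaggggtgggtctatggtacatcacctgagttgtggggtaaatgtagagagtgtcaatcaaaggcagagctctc
HELLS: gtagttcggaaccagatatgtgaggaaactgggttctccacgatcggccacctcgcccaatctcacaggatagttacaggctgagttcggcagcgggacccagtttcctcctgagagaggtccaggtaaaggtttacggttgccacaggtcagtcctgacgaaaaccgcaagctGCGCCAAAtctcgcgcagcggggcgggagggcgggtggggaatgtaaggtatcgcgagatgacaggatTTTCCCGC

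HELLS, RAD54L and ERCC6L are known to peak in proliferating cells. The 16 proliferation markers summed to 5510 to 5590 CPM in wild-type and 5620 to 5640 CPM in knockout libraries, with 2 called higher, 5 lower and 9 not called. Lower were CCNA2 (-0.23), CCNB1 (-0.38), BUB1 (-0.14), AURKA (-0.25) and AURKB (-0.31). Higher were TOP2A (0.34) and MCM5 (0.56, beside a neighbour median of 0.32). The part of these markers in the rise of HELLS was not tested.

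The partner proteins of these motors were read from 8 lists of 113 genes, all tested, of which 22 were called higher and 11 lower. That is 29.2% of the partner genes, against 31.8% called over all genes tested, so the count does not set the partners apart. Of the BAF and PBAF subunits, the longest list, 9 of 26 were higher and 0 lower, with a median log2 fold change of 0.13. The share called higher was 34.6%, against 14.0% over all genes and 16.7% in the CPM range of the ATPases. In either direction it was also 34.6%, against 31.8% over all genes and 37.2% in that CPM range. The shares called in either direction were 44.4% of the ISWI partners and 38.5% of the INO80 subunits, lists of 9 and 13 genes. SMARCE1, the HMG-box subunit BAF57, had 14.0, 13.3 and 13.0 CPM in wild-type and 20.5, 20.3 and 19.4 CPM in knockout libraries (log2 fold change 0.58, SE 0.07, adjusted p = 7.11e-05). Its wild-type level was only 0.720 CPM per kb of exon, and whether its reads were shared with overlapping genes was not examined. ARID1B, the DNA-binding subunit of canonical BAF, had 82.4, 83.2 and 81.7 against 107, 112 and 107 CPM (log2 fold change 0.39, adjusted p = 4.06e-05), beside a neighbour median of 0.25 whose removal left 0.15. Both were called in all 17 alternatives and were clearly separate between groups, as was BPTF, the reader subunit of the ISWI complex NURF (log2 fold change 0.32, adjusted p = 1.44e-04, and 0.16 with its neighbour median removed). The other BAF and PBAF subunits called higher were ARID1A (0.21), PBRM1 (0.25), SMARCC1 (0.18), DPF2 (0.13), PHF10 (0.27), BRD9 (0.23) and SS18L1 (0.33), and the neighbour medians of PHF10, PBRM1 and SMARCC1 were 0.31, 0.16 and 0.12.

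Of 13 NuRD and ChAHP partners, 3 were called lower (23.1%, against 17.7% of all genes and 20.5% in the CPM range of the ATPases) and 0 higher, and with the GC and length trend removed 3 were called higher and 2 lower. MTA3 had 44.3, 43.2 and 44.5 against 32.0, 31.4 and 33.4 CPM (log2 fold change -0.45, SE 0.05, adjusted p = 7.49e-05), and CDK2AP1, a small subunit, had 41.3, 48.0 and 47.3 against 33.8, 32.8 and 34.8 CPM (log2 fold change -0.43, SE 0.07, adjusted p = 5.93e-04). The methyl-CpG binding subunit MBD2 was the third (-0.19, adjusted p = 0.0228). Of 9 ISWI partners 3 were called higher and 1 lower, namely BPTF, CECR2 (0.22) and RSF1 (0.16) against POLE3 (-0.11), and POLE3 was called in 3 of 17 alternatives. CECR2 was not called with its neighbour median removed (0.13, adjusted p = 0.140).

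INO80 subunits were split, with INO80D (log2 fold change 0.25) and ACTR8 (0.17) higher and RUVBL1 (-0.20), UCHL5 (-0.27) and INO80C (-0.30) lower among 13. ACTR8 lay beside a neighbour median of 0.15, was at 0.01 with it removed (adjusted p = 0.865) and was called in 9 of 17 alternatives. Of 17 genes of the SRCAP and TIP60 complexes and H2A.Z, MBTD1 (0.38, adjusted p = 2.52e-04) and BRD8 (0.17) rose and MORF4L2 (-0.20) and ACTR6 (-0.30) fell. With neighbour medians removed MBTD1 was at 0.22 and MORF4L2 at 0.01, no longer called. H3.3, the histone that ATRX deposits, was higher from both genes, H3F3A (0.21) and H3F3B (0.15), though H3F3A is uncertain because of near-identical copies elsewhere. H3F3B lay beside a neighbour median of 0.15, and its log2 fold change was 0.01 with that median removed. CDCA7L (-0.16), a relative of the HELLS activator CDCA7, was called lower among 10 ATRX and HELLS partners, in 4 of 17 alternatives.

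Of 13 repair partners, XRCC2 (0.24) and BRCA1 (0.18) were called higher and 0 lower. XRCC2 lay beside a neighbour median of 0.16, and at 0.08 it was no longer called once that median was removed (adjusted p = 0.232). BRCA1 lay beside a neighbour median of 0.33, and with it removed its value was -0.15. Of 12 replication fork partners, the fork protein CXorf57 (RADX, 0.40) and the RPA subunit RPA3 (0.34) rose in all 17 alternatives, and RPA1 (-0.13) was called lower, in 5 of 17.

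**Figure D5:**
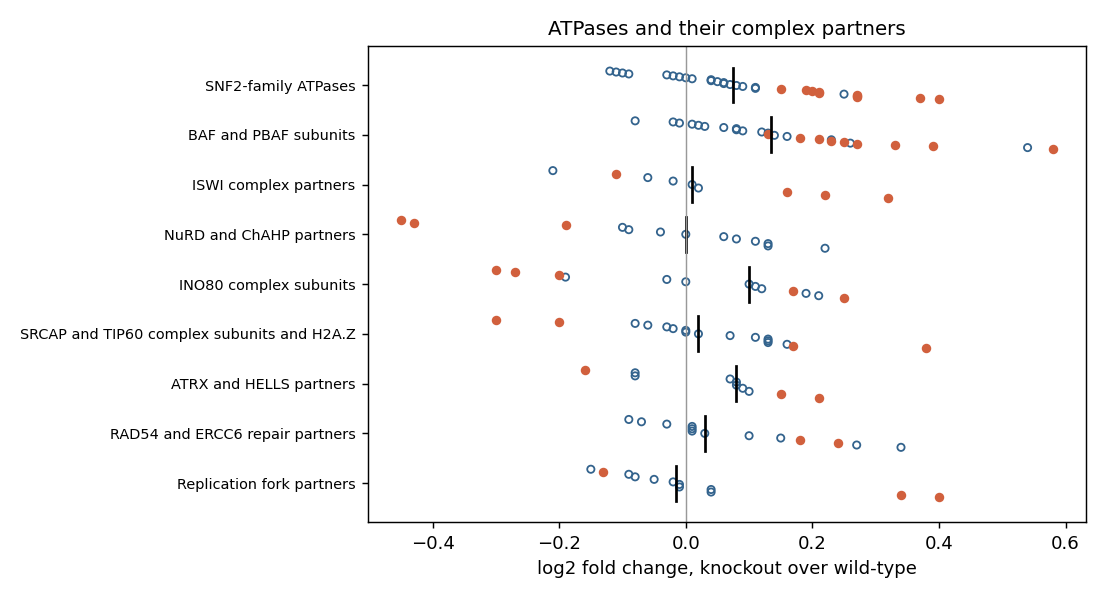
Log2 fold change of knockout over wild-type (x axis) for the 30 ATPases and the genes of 8 partner lists (rows), with filled points for adjusted p under 0.05 and a black bar at each median. The ATPases and the BAF and PBAF subunits have medians of 0.08 and 0.13 and hold no gene called lower, and the NuRD and ChAHP partners have a median of 0.00.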

How the data were processed

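The authors deposited unnormalized counts of reads for each gene symbol, as whole numbers, with a separate column for each of the 6 libraries. The names Trim Galore, STAR 2.4, Picard, HTSeq 0.9.1, DESeq2 and hg38 appear, per the submitters' processing notes, without role or order. Strand setting and annotation: not given in the sources used here. Exons of 12 members overlap genes of the opposite strand and those of 11 overlap genes of the same strand in GENCODE 29, so such reads may not have been told apart.

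Counts were tested with edgeR 4.0.16 (R 4.3.3): filterByExpr, TMM (factors 0.997 to 1.005), quasi-likelihood F test of 3 against 3 libraries with no covariate, two-sided p adjusted by Benjamini-Hochberg over 18061 genes, threshold 0.05. The common biological coefficient of variation was 6.12%. A floor of 3 counts is 0.0721 to 0.0906 CPM, and depth covers counting error only. The neighbour median is that of the 40 nearest genes with at least 2 CPM, and was removed as an offset in the knockout libraries. So was a loess trend on GC content and exon length. This setting, and the one without replicate 1 of both groups, were added after results had been seen, as was the matching of older symbols to positions through RefSeq synonyms. Genes with a position numbered 14443 (80.0%), and the others were left uncorrected. Paralog ratios were tested by exact permutation (scipy 1.17.1). Promoter windows were searched for 15 motifs, all reported. The procedure was run on simulated counts without trends on position or GC content. Its limits on recovery were set only for fold changes larger than those of the called members, so it does not bear on calls this small. Named genes were the 30 members, HLTF and, per partner list, up to 2 called genes in each direction with the smallest p. EP400NL, the kidney, epithelial, mesenchymal and proliferation markers and the further called partners were named outside that rule, after their values were seen. Members and lists were chosen with earlier results of these data known.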

Additional observations from a re-analysis of the deposited data

How the results depend on the processing

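The 10 calls among the members were 8 to 12 when 1 library was left out and 7 to 14 over the other alternatives (RLE factors, scaling by library size alone, every gene with a count, at least 1 CPM in 3 libraries, DESeq2 1.42.0, limma-voom 3.58.1, replicate block, adjusted p threshold 0.01, neighbour median or GC and length trend removed, replicate 1 of both groups left out), with 0 called lower in each. DESeq2 called 9, and at an adjusted p of 0.01 the 7 were those without SMARCA4, CHD9 and HELLS. Over all genes that threshold gave 1421 higher and 2056 lower, and leaving out 1 library gave 1850 to 2881 higher and 2309 to 3275 lower. The 11 partner genes called lower were 7 with DESeq2, 7 with the replicate block, 5 at 0.01, 7 with neighbour medians removed, 5 with the GC and length trend removed and 6 to 10 with 1 library left out.

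Replicate numbers did not pair the libraries (correlations of same-numbered deviations -0.603, -0.136 and -0.17). The replicate block gave 8 members higher, without SMARCA4 and CHD9, and 1791 higher and 2441 lower over all genes. For the paralog ratios the block left each difference as it was, with exact permutation p of at least 0.25.

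Members near 0 changed sign, and of these only CHD1 was called in any alternative with its sign changed. With RLE factors CHD1 was at 0.00 and CHD8 at 0.01, CHD8 was at 0.01 with 1 CPM in 3 libraries and 0.00 with DESeq2. With 1 library left out CHD1 ran from -0.03 to 0.05, CHD8 from -0.02 to 0.02, ERCC6L from -0.05 to 0.03, INO80 from -0.02 to 0.06, SMARCAL1 from -0.01 to 0.09, ZRANB3 from -0.08 to 0.03 and the ratio of RAD54L to RAD54B from -0.03 to 0.09. With neighbour medians removed HLTF was at 0.02, CHD1 at 0.19 (called, adjusted p = 0.00890), CHD1L at -0.02, SMARCAD1 at 0.09, BTAF1 at 0.03, ERCC6L at 0.06, ZRANB3 at 0.01, MORF4L2 at 0.01, CDCA7L at 0.02 and BRCA1 at -0.15 (called lower). With the GC and length trend removed CHD1 was at 0.12, SMARCAD1 at 0.01, ERCC6L at 0.09, ZRANB3 at 0.06 and POLE3 at 0.01. Without replicate 1 of both groups CHD1 was at 0.06, CHD8 at 0.03, ERCC6L at 0.04 and ZRANB3 at 0.03, and 2923 genes were called higher and 3271 lower. The cause of these changes was not tested.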
